A study of Bactrocera dorsalis with 16 samples.

Results

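The miR-92 sequences of the oriental fruit fly, Bactrocera dorsalis, are described here in the ovaries and fat bodies of adult females, from small RNA sequencing. Members were all entries of the deposited table whose name carries the number 92, 92a or 92b, together with the predicted candidate PC-3p-204_49387, which has the same seed. These were 8 of 788 entries and, once entries with the same letters were summed, 7 of 747 distinct sequences. Of these 7, 5 passed the filter on low values (10 or more in 2 or more libraries) and were among the 321 sequences tested. The 5′ arm bdo-mir-92b-p5 and a further 5′ form, dvi-miR-92b-5p_L+1R-2_1ss21TA, did not pass it.

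Ovaries and fat bodies came from females at 1, 5, 9 and 13 days of adult life, counted from eclosion (emergence from the puparium), with 2 libraries for each tissue at each day and 16 in all. Submitter texts on the design and the library preparation name fewer samples and libraries than the 16 labelled ones, and the labels were followed. All groups were reared alike on yeast extract and sugar, with no treatment or genetic change named in the labels, and how many animals went into a library is not stated there. The labels call the replicates biological without naming separate cultures or animals, so the p-values measure only the spread between these libraries, which may be technical. Levels are in the normalised signal unit of the authors' table, whose scaling is not given in the sources used here.

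Eggs grow in the ovary, while the fat body stores lipid and secretes the yolk proteins that eggs take up. A microRNA (miRNA) is a short RNA cut from a hairpin precursor. It guides Argonaute proteins to messenger RNAs, mostly by pairing through its seed, bases 2 to 8 from the 5′ end. The miR-92 family is found in insects and vertebrates. In Drosophila melanogaster its members are known from neural stem cells, where miR-92a and miR-92b help to keep self-renewal, and from muscle, where miR-92b restrains Mef2, while a related cluster that includes miR-311 carries the same seed.

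The sequences below are shown because the family is defined by them and because the forms differ by few bases. They are printed 5′ to 3′ as in the deposited table, with the seed in capitals. A prefix names the animal whose known miRNA the sequence was matched to (bdo for B. dorsalis, dme for D. melanogaster, ame for honeybee, pte for a house spider, der and dvi for other Drosophila). L and R give bases gained or lost at the 5′ or 3′ end, and ss marks a substitution. The 2 entries ame-miR-92a-3p_L+1 and aga-miR-92a had the same letters and identical values, and their sum is called miR-92a. Taken once, the levels of miR-92a and its ratios to miR-92b would be those given here divided by 2, and the whole-read check below did not settle which is right.
bdo-miR-92b: aATTGCACtagtcccggcctgc
dme-miR-92b-3p_R+1: aATTGCACtagtcccggcctgct
ame-miR-92a-3p_L+1: tATTGCACttgtcccggcctat
pte-miR-92b-3p_R+1_1ss10CT: tATTGCACttgtcccggcctaa
PC-3p-204_49387: tATTGCACaatccccggcctga
der-miR-311b-3p_1ss10TA: tATTGCACaatccccagcctga
pte-miR-92c-3p_R-1_1ss18TC: tATTGCACttgtcccggcctg
bdo-mir-92b-p5: aGGTCGTGcctggtgcttaatt

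Across all entries, 7 sequences had the bases ATTGCAC at positions 2 to 8. They were the 5 tested members and 2 relatives, der-miR-311b-3p_1ss10TA and pte-miR-92c-3p_R-1_1ss18TC, which the naming rule did not take and which did not pass the filter. Over the 21 bases of the shortest of them, 14 positions were identical in all 7. Substitutions are counted from 1 at the 5′ end, with the base of the first-named sequence first. From miR-92b to miR-92a the differences were A1T, A10T, G21A and C22T, so that 18 of 22 bases were identical. From miR-92b to the candidate they were A1T, T9A, G11T, T12C and C22A, with 17 of 22 identical. All of these differences lie outside the seed.

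Names and letters did not always go together. The sequence named pte-miR-92b-3p_R+1_1ss10CT differed from miR-92a by T22A alone, and from bdo-miR-92b by 4 bases, so it is called the miR-92a form ending in A. The candidate differed by G16A alone from the sequence named after miR-311b of Drosophila erecta. dme-miR-92b-3p_R+1 is miR-92b with 1 further base at the 3′ end and is called the 23-base form. The 5′ arm and miR-92b could form 14 base pairs in a predicted duplex with a free energy of -20.9 kcal/mol.

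At day 9 the libraries labelled replicate 2 stood apart. The one labelled fat body went against its label in its nearest library and in both marker sums below, and the one labelled ovary did so in part. Over all tested sequences the library labelled ovary day 9 replicate 2 was nearest to fat body day 9 replicate 1 (Pearson r = 0.942) and had r = 0.902 with the other library of its group. The library labelled fat body day 9 replicate 2 was nearest to ovary day 9 replicate 1 (r = 0.975) and had r = 0.801 with its partner. The fly ovary miRNAs miR-989, miR-318 and miR-994 summed to 31432.9 in the library labelled ovary day 9 replicate 2 and to 189159.7 in the one labelled fat body day 9 replicate 2, against 1213.8 to 229646.3 in the other 7 ovary libraries and 154.5 to 4356.2 in the other 7 fat body libraries. The fat body miRNAs miR-8, miR-277 and miR-278 summed to 176834.5 in the library labelled ovary day 9 replicate 2 and to 69929.5 in the one labelled fat body day 9 replicate 2, against 28203.0 to 69251.0 in the other 7 ovary libraries and 164661.7 to 302252.4 in the other 7 fat body libraries. The library labelled ovary day 9 replicate 2 thus lay within the ovary range for the ovary markers and within the fat body range for the fat body markers. Its miR-92a, miR-92b and candidate values lay below every other ovary value apart from 914.50 and 1209.82 of the candidate at day 1, and above every fat body value outside the library labelled day 9 replicate 2. Results are given with and without these libraries, which also enter the pooled spread behind every p-value. Reads per library, estimated from the spacing of low values, ran from 193955 to 1865182 with a median of 753622.

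miR-92a, miR-92b, the 23-base form and the candidate were all far higher in ovary than in fat body. Averaged over days their levels in ovary were 12.0 to 15.3 times those in fat body, as the fitted fold of value + 1. The miR-92a form ending in A, which differs from miR-92a by its last base, was at low levels in both tissues and did not differ over the mean of days by this test. In bulk tissue fewer cells that hold a miRNA and less of it per cell cannot be told apart.

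With its entries summed, miR-92a had a mean of 4242 over the 7 ovary libraries without day 9 replicate 2, against 2305 for miR-92b in the same libraries. Taken once, its mean was 2121. At day 1 it had 3163.44 and 2068.06 in ovary, against 69.74 and 113.14 in fat body. At day 5 it had 1873.08 and 1539.96 in ovary, against 239.44 and 177.84 in fat body. At day 13 it had 7890.60 and 8080.22 in ovary, against 74.64 and 125.90 in fat body. On each of these days both ovary libraries lay above both fat body libraries, with the widest gap at day 13. At day 9 replicate 1 had 5076.10 in ovary against 171.46 in fat body, while the libraries labelled replicate 2 had 996.68 for ovary and 6009.80 for fat body.

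miR-92b showed the same order of tissues. At day 1 it had 1413.85 and 1269.38 in ovary, against 39.62 and 56.72 in fat body. At day 5 it had 1466.38 and 1335.96 in ovary, against 92.10 and 52.12 in fat body. At day 13 it had 3882.43 and 4136.40 in ovary, against 214.47 and 170.03 in fat body. The tissues did not overlap on these days, and in fat body the 2 highest values outside the library labelled day 9 replicate 2 were those of day 13. At day 9 replicate 1 had 2629.47 in ovary against 127.15 in fat body, while the libraries labelled replicate 2 had 509.29 for ovary and 3220.43 for fat body.

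The candidate PC-3p-204_49387, a predicted miRNA with no known name in the table, had 1209.82 and 914.50 in ovary at day 1, against 128.66 and 140.90 in fat body. At day 5 it had 2009.66 and 1347.27 in ovary, against 125.86 and 99.65 in fat body. At day 13 it had 10851.55 and 12322.41 in ovary, against 51.85 and 116.59 in fat body. Its day 13 ovary values were the 2 highest of any miR-92 sequence in any library, and in fat body it was at most 140.90 outside the library labelled day 9 replicate 2. At day 9 replicate 1 had 7291.87 in ovary against 118.48 in fat body, while the libraries labelled replicate 2 had 1289.30 for ovary and 7302.99 for fat body. By mean level over the 7 libraries of a tissue without day 9 replicate 2, the candidate ranked 29 of 747 sequences in ovary and 90 in fat body, miR-92a 34 and 80, and miR-92b 38 and 93. The ranks of miR-92a rest on its entries being summed. Taken once, its ovary mean of 2121 lay below the 2305 of miR-92b.

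**Figure D1:**
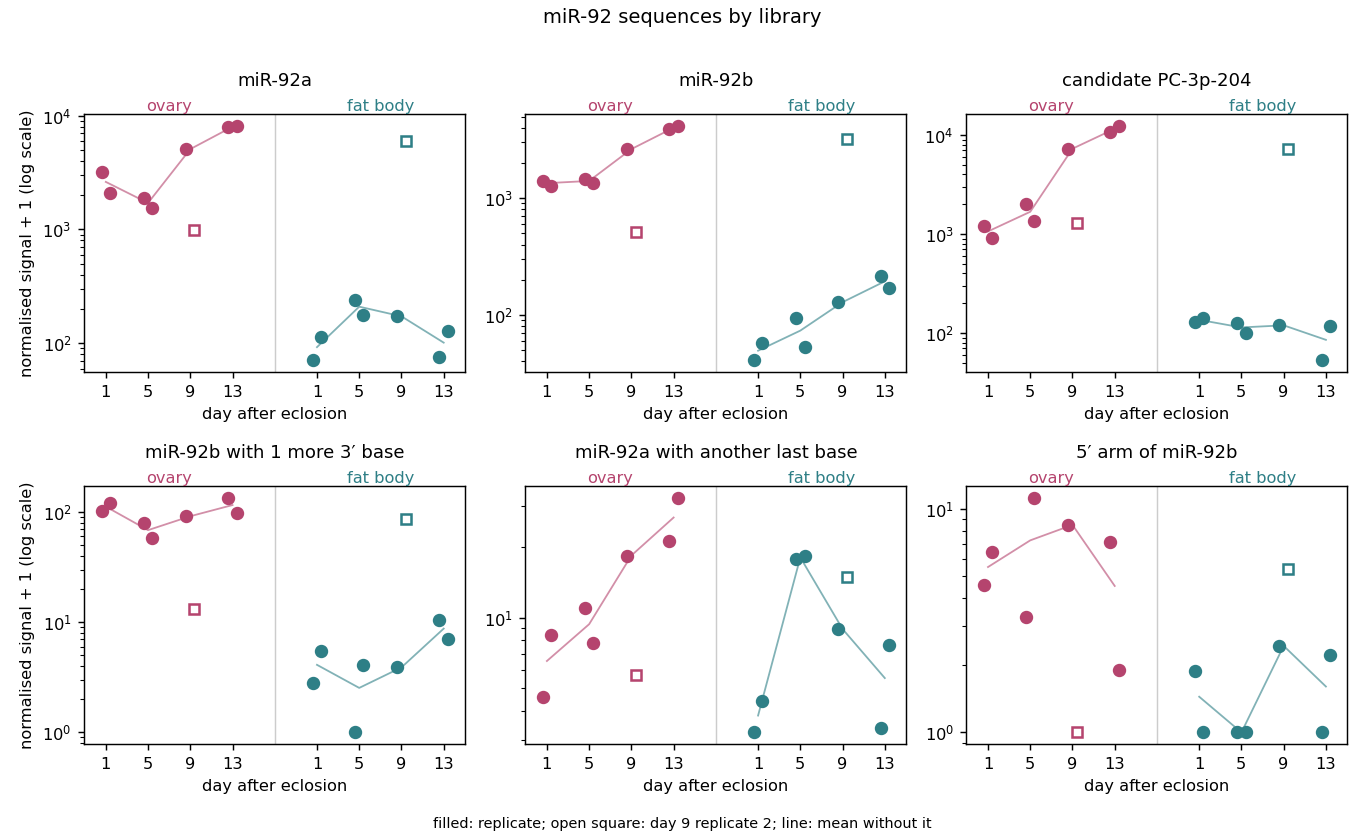
Normalised signal + 1 (log axis) of 6 miR-92 sequences by day after eclosion, with ovary left and fat body right in each panel. Filled points are libraries, open squares the libraries labelled day 9 replicate 2, and lines join group means without them. For miR-92a, miR-92b, the candidate and the 23-base form the filled ovary points all lie above the filled fat body points, and the open squares lie the other way round.

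The same comparison was fitted with limma over all 321 tested sequences, on log2(value + 1) and with Benjamini-Hochberg adjustment. Over the mean of the 4 days 4 of the 5 tested members were higher in ovary and none lower, where 24.6% of all tested sequences were higher in ovary and 37.1% differed in either direction. The log2 difference of ovary minus fat body was 3.93 ± 0.67 (SE) for the candidate (adjusted p = 0.00145). For miR-92a it was 3.84 ± 0.60 (adjusted p = 0.00111), for miR-92b 3.59 ± 0.55 (adjusted p = 0.00111) and for the 23-base form 3.64 ± 0.63 (adjusted p = 0.0015). For the miR-92a form ending in A it was 0.49 ± 0.38 (adjusted p = 0.331), with a 95% interval from -0.33 to 1.30. The median difference was 3.64 over the 5 members and 0.20 over all tested sequences. The member median is the value of the 23-base form. In fat body that form was at 0 to 9.43 outside the library labelled day 9 replicate 2, below the minimum of the filter on low values. It thus entered the test through its ovary values, and the size of its difference depends on the pseudocount. With a pseudocount of 10 its difference was 2.29 (limma, adjusted p = 0.00272).

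Without both libraries labelled day 9 replicate 2, where 53.9% of tested sequences were called, the same 4 were higher in ovary, with log2 differences of 4.46 for miR-92b, 4.55 for the 23-base form, 4.77 for miR-92a and 4.99 for the candidate. In those 14 libraries every ovary value lay above every fat body value for each of the 4, as for 8.72% of all tested sequences. Over all 16 libraries no tested sequence was so separated. The lowest and highest miR-92b values were then 509.29 and 4136.40 in ovary, against 39.62 and 3220.43 in fat body.

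At day 1 miR-92b and miR-92a were higher in ovary, with log2 differences of 4.79 ± 1.11 (adjusted p = 0.0389) and 4.83 ± 1.19 (adjusted p = 0.0443). The 2 called members stood against 2.49% of all tested sequences called higher in ovary and 3.12% called in either direction. All 5 members had both ovary values above both fat body values at day 1, as did 31.2% of tested sequences. The 23-base form had a difference of 4.84 ± 1.26 (adjusted p = 0.0593) and the candidate 2.96 ± 1.35 (adjusted p = 0.32). Neither call was kept when any 1 of the 12 libraries of days 1, 5 and 13 was left out (0 members called in each), or with no filter on low values (adjusted p of 0.0729 for miR-92b and 0.0915 for miR-92a). With both libraries labelled day 9 replicate 2 left out the 4 sequences were all called at day 1, where 18.0% of tested sequences were, the candidate with adjusted p = 0.000316 (range over all alternatives 0.000316 to 0.728).

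At day 5 none of the 5 members passed the threshold over all 16 libraries, where 2.18% of tested sequences did and 1.56% were called higher in ovary. An unadjusted p under 0.05 was reached by 81 of the 321 tested sequences at day 5. Both ovary values lay above both fat body values for 4 of the 5, as for 29.3% of tested sequences. The log2 difference was 5.07 ± 1.26 for the 23-base form (adjusted p = 0.052), 4.32 ± 1.11 for miR-92b (adjusted p = 0.0551), 3.87 ± 1.35 for the candidate (adjusted p = 0.0916) and 3.03 ± 1.19 for miR-92a (adjusted p = 0.141). Unadjusted, these 4 had a p under 0.05, and they were called once both libraries labelled day 9 replicate 2 were left out, where 26.8% of tested sequences were. At day 9 no tested sequence was called by limma (0% of 321, with 1 sequence at an unadjusted p under 0.05), and the members' differences ran from -0.18 to 1.72. At day 9 both ovary values lay above both fat body values for no member and for 1.87% of tested sequences.

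At day 13 all 5 tested members were higher in ovary, where 30.5% of all tested sequences were higher in ovary and 44.9% differed in either direction. All 5 also had both ovary values above both fat body values, as did 44.9% of tested sequences. The candidate had the widest difference of the 5, 7.20 ± 1.35 on the log2 scale (adjusted p = 0.00151), a fitted fold of 147. miR-92a followed with 6.35 ± 1.19 (adjusted p = 0.00151), a fold of 81.5. The difference was 4.38 ± 1.11 for miR-92b (adjusted p = 0.0076), 3.73 ± 1.26 for the 23-base form (adjusted p = 0.0294) and 2.37 ± 0.76 for the miR-92a form ending in A (adjusted p = 0.0229). The last pair of calls rested on few reads in fat body, about 8 and 5 for the 23-base form and 2 and 5.5 for the other. Only 3 members were called without ovary day 13 replicate 1, without ovary day 13 replicate 2 or without fat body day 13 replicate 1, and 4 without fat body day 13 replicate 2. With TMM scaling the form ending in A was not called (1.91, adjusted p = 0.0513, range over all alternatives 0.00808 to 0.156).

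**Figure D2:**
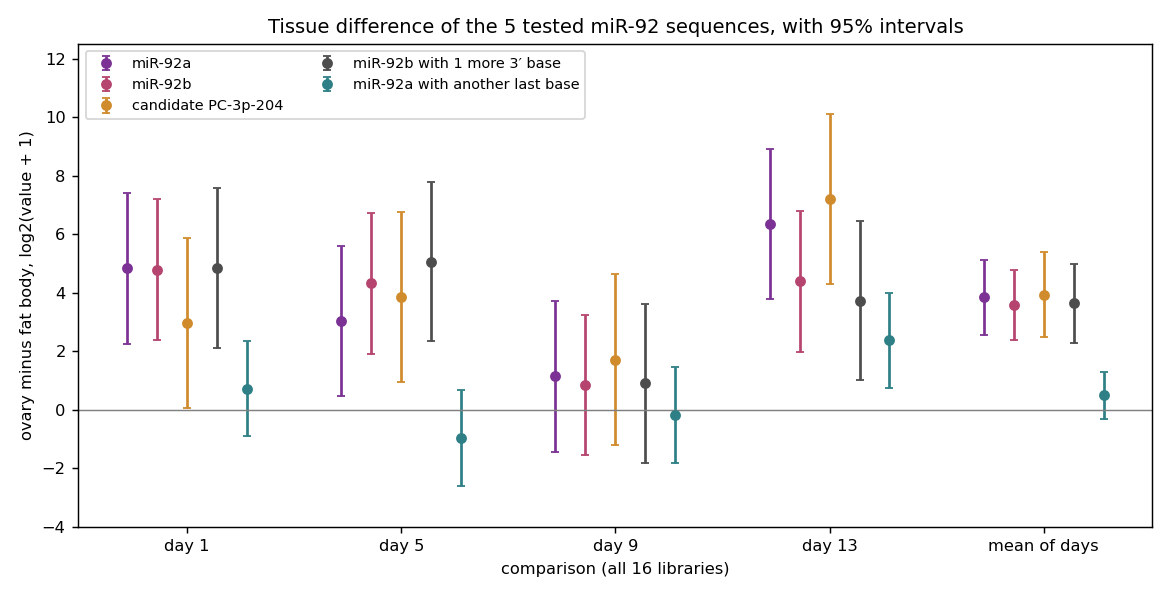
Difference of ovary minus fat body on the log2(value + 1) scale for the 5 tested miR-92 sequences, at each day and over the mean of days. Points are limma estimates from all 16 libraries and bars 95% intervals. At day 13 the candidate (7.20) and miR-92a (6.35) lie highest, and at day 9 all 5 intervals cross 0.

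The ovary libraries carried their own markers, and 4 of 5 tested miR-92 members were also higher in ovary over the mean of days. Across days the members' estimated differences did not all widen with those markers. Each day's estimate had an SE of 0.76 to 1.35. Whether the tissue difference changed with day was called for none of the 5 over all 16 libraries (limma joint test, adjusted p of 0.186 to 0.316). From day 1 to day 13 the log2 difference went from 4.79 to 4.38 for miR-92b and from 4.84 to 3.73 for dme-miR-92b-3p_R+1. It rose for miR-92a (4.83 to 6.35), the candidate (2.96 to 7.20) and the miR-92a form ending in A (0.73 to 2.37). At day 13 it was 8.81 for bdo-miR-318 and 8.30 for bdo-miR-994_R+1. Of 7 tested sequences of miR-989, miR-318 and miR-994, all were higher in ovary over the mean of days (median log2 difference 2.16), and of 6 of miR-8, miR-277 and miR-278, 5 were lower (median -1.73). Among the leading forms of the ovary markers at day 1 only miR-989 had both ovary values above both fat body values, with 1465.57 and 1145.35 in ovary against 98.38 and 322.57 in fat body. miR-318 had 21.55 and 15.26 in ovary against 14.25 and 20.38 in fat body at that day, when the miR-92b values of the tissues did not overlap. The summed ovary markers were 1541.0 and 1213.8 in ovary at day 1 and 163079.2 and 229646.3 at day 13.

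Of the muscle miRNAs miR-1 and miR-133, which a dissection may carry along, 3 of 4 tested sequences were lower in ovary and none higher. They summed to 3961.6 to 23621.6 in the 7 ovary libraries without day 9 replicate 2, against 40613.5 to 89872.1 in the matching fat body libraries. miR-133 itself was at 0 to 4.33 throughout. The nerve miRNAs miR-124, miR-137 and miR-1000, of which 2 of 3 tested sequences were lower in ovary, summed to 50.6 to 725.0 in ovary, against 315.8 to 1073.3 in fat body. Of the 38 tested sequences of other miRNAs of the fly female germline and early embryo, 23 were higher in ovary and 1 lower (median 1.995). The part of cell makeup in the miR-92 difference was not tested.

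Pooled by their seed, the 7 sequences with ATTGCAC summed to 5892 and 4382 in ovary at day 1, against 243 and 320 in fat body. At day 13 they summed to 22779 and 24672 in ovary, against 355 and 428 in fat body. In ovary outside the library labelled day 9 replicate 2 they made up 0.801% to 2.78% of the library's signal, against 0.0327% to 0.0722% in the matching fat body libraries. The libraries labelled day 9 replicate 2 held 0.436% for ovary and 2.34% for fat body. These shares were highest in ovary at day 13, and lower in each matching fat body library than in every ovary library. The sums and shares count both entries of miR-92a, and with these taken once the sums would be lower.

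**Figure D3:**
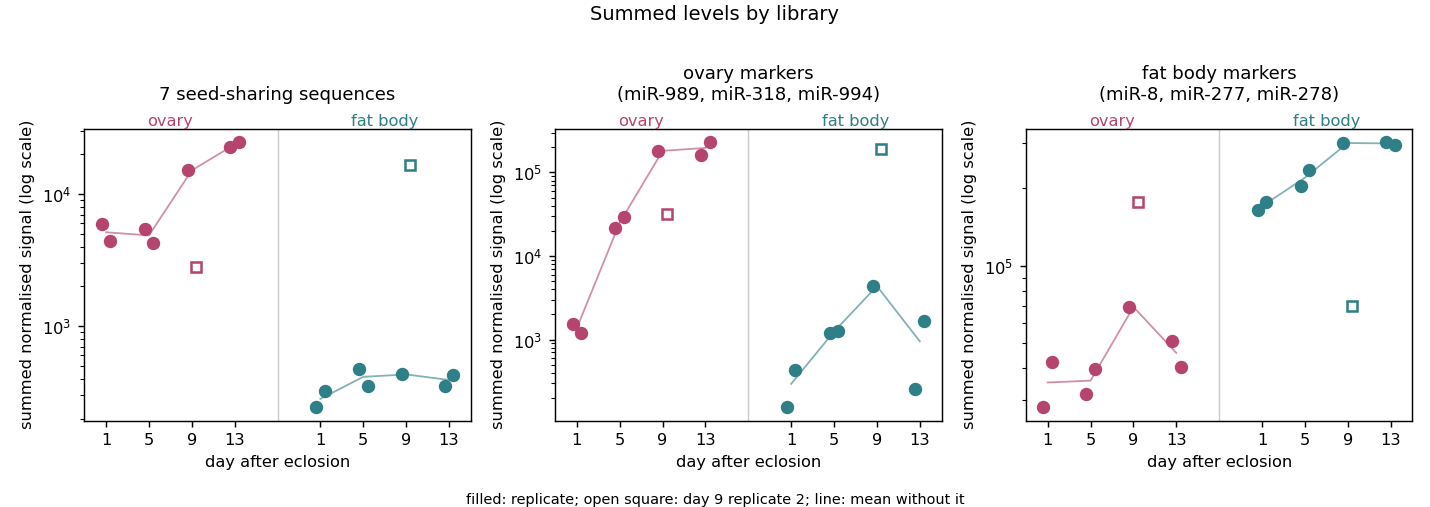
Summed normalised signal (log axes) of the 7 sequences with the same seed, of the ovary markers and of the fat body markers, by day, with ovary left and fat body right in each panel. Filled points are libraries, open squares those labelled day 9 replicate 2, and lines join group means without them. The library labelled ovary day 9 replicate 2 lies among the fat body points for the fat body markers (176834.5), among the ovary points for the ovary markers (31432.9) and between the tissues for the seed-sharing sum (2812), while the one labelled fat body day 9 replicate 2 lies among the ovary points for the ovary markers (189159.7).

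Within the ovary the family's make-up moved towards the candidate as the flies aged. The candidate had 0.856 and 0.720 times the level of miR-92b in the day 1 ovaries. It had 1.37 and 1.01 times that level at day 5, 2.77 and 2.53 at day 9, and 2.80 and 2.98 at day 13. The 4 later libraries all lay above the 4 earlier ones, and the library labelled ovary day 9 replicate 2 lay near its replicate in this ratio. On the log2 scale the ratio rose by 0.17 per day, 2.04 over the 12 days (exact two-sided permutation test over 8 libraries, p = 0.000794, the smallest it can give, Benjamini-Hochberg adjusted over 8 trends 0.00635). The trends with day were added after the values were seen.

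In fat body the ratio of candidate to miR-92b ran the other way. It was 3.25 and 2.48 at day 1, 1.37 and 1.91 at day 5, 0.932 in replicate 1 at day 9, and 0.242 and 0.686 at day 13, while the library labelled day 9 replicate 2 had 2.27. The log2 ratio fell by 0.21 per day (exact permutation test over 8 libraries, adjusted p = 0.019). That call was lost without fat body day 1 replicate 1, day 1 replicate 2, day 5 replicate 2 or day 13 replicate 1, at adjusted p of 0.0635, 0.055, 0.0593 and 0.0677 by the same exact test. About 41 to 289 reads of the candidate and 30 to 182 of miR-92b lay behind these fat body ratios outside the library labelled day 9 replicate 2.

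The slope of the candidate ratio was 0.38 per day higher in ovary than in fat body, with 0.17 in ovary and -0.21 in fat body (exact permutation of tissue within day, p = 0.00309, adjusted over 4 differences 0.0123). It kept this call in each of 16 fits that left out 1 library, between 0.317 and 0.403. It was 0.396 without both libraries labelled day 9 replicate 2 (exact permutation, adjusted p = 0.037). Averaged over days the ratio did not differ between tissues by this test, with mean log2 ratios of 0.71 ± 0.86 in ovary and 0.36 ± 1.22 in fat body (SD over 8 libraries each, exact permutation, adjusted p = 0.749).

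As shares of the seed-sharing sum, the candidate held 20.5% and 20.9% in ovary at day 1 and 47.6% and 49.9% at day 13. In fat body it held 52.9% and 44.0% at day 1 and 14.6% and 27.2% at day 13. miR-92a held 53.7% and 47.2% in ovary at day 1 and 34.6% and 32.8% at day 13. The candidate was thus the main sequence with this seed in the oldest ovaries, and miR-92b in the oldest fat bodies, where it held 60.5% and 39.7%. In replicate 2 of the day 1 ovaries miR-92a led only with its entries summed. Taken once it held 36.7% and 30.9% in the day 1 ovaries, against 32.8% and 37.9% for miR-92b.

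**Figure D4:**
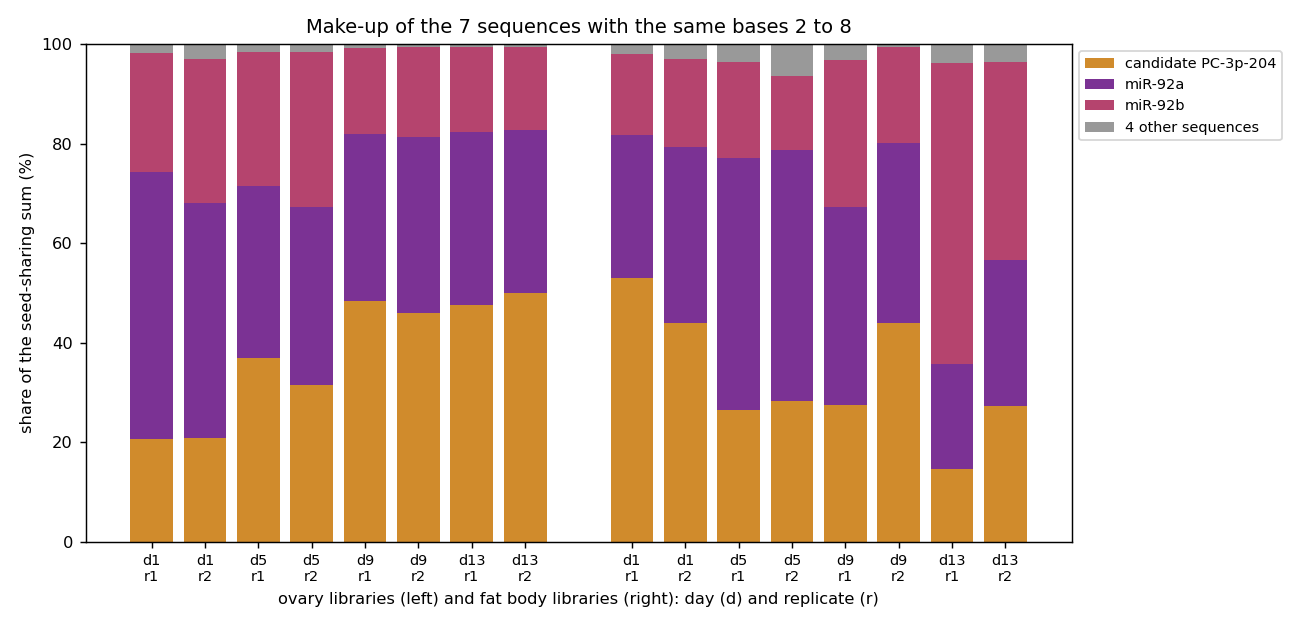
Share (%) of each sequence in the summed signal of the 7 sequences with the same seed, one stacked bar per library, with ovary left and fat body right. In ovary the candidate's share is 20.5% and 20.9% at day 1 and 47.6% and 49.9% at day 13, and in fat body 52.9% and 44.0% at day 1 and 14.6% and 27.2% at day 13.

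The ratio of miR-92a to miR-92b moved less in ovary. It was 2.24 and 1.63 at day 1, 1.28 and 1.15 at day 5, 1.93 and 1.96 at day 9, and 2.03 and 1.95 at day 13. In fat body it was 1.76 and 1.99 at day 1, 2.60 and 3.41 at day 5, 1.35 in replicate 1 and 1.87 in the library labelled replicate 2 at day 9, and 0.348 and 0.741 at day 13. Neither trend passed, with a log2 slope of 0.02 per day in ovary (exact permutation, adjusted p = 0.481) and -0.16 in fat body (adjusted p = 0.0635). The slopes differed by 0.18 per day (exact permutation, adjusted p = 0.0494), a call lost in 12 of 16 fits without 1 library (adjusted p of 0.0309 to 0.127). It was kept only without ovary day 1 replicate 1, fat body day 1 replicate 1 or 2, or the library labelled fat body day 9 replicate 2.

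The 23-base form is miR-92b with a T added at the 3′ end in the table's letters. In ovary it had 101.30 and 120.59 at day 1, 78.27 and 56.56 at day 5, and 132.33 and 96.74 at day 13. In fat body it had 1.78 and 4.43 at day 1, 0 and 3.07 at day 5, and 9.43 and 6.07 at day 13. At day 9 replicate 1 had 90.48 in ovary against 2.89 in fat body, while the libraries labelled replicate 2 had 12.06 for ovary and 86.21 for fat body. As with miR-92b itself, ovary lay above fat body on days 1, 5 and 13.

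Set against miR-92b, the 23-base form grew scarcer in older ovaries. It was at 7.17% and 9.50% of miR-92b at day 1, 5.34% and 4.23% at day 5, 3.44% and 2.37% at day 9, and 3.41% and 2.34% at day 13. The log2 ratio fell by 0.13 per day (exact permutation test over 8 libraries, p = 0.00397, adjusted 0.0159), a call kept in each of 16 fits without 1 library. In fat body it was at 0% to 7.81% with no trend that passed (exact permutation, adjusted p = 0.481), on 0 to 8 reads outside the library labelled day 9 replicate 2. The difference of the slopes did not pass (-0.07 per day, exact permutation, adjusted p = 0.237).

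**Figure D5:**
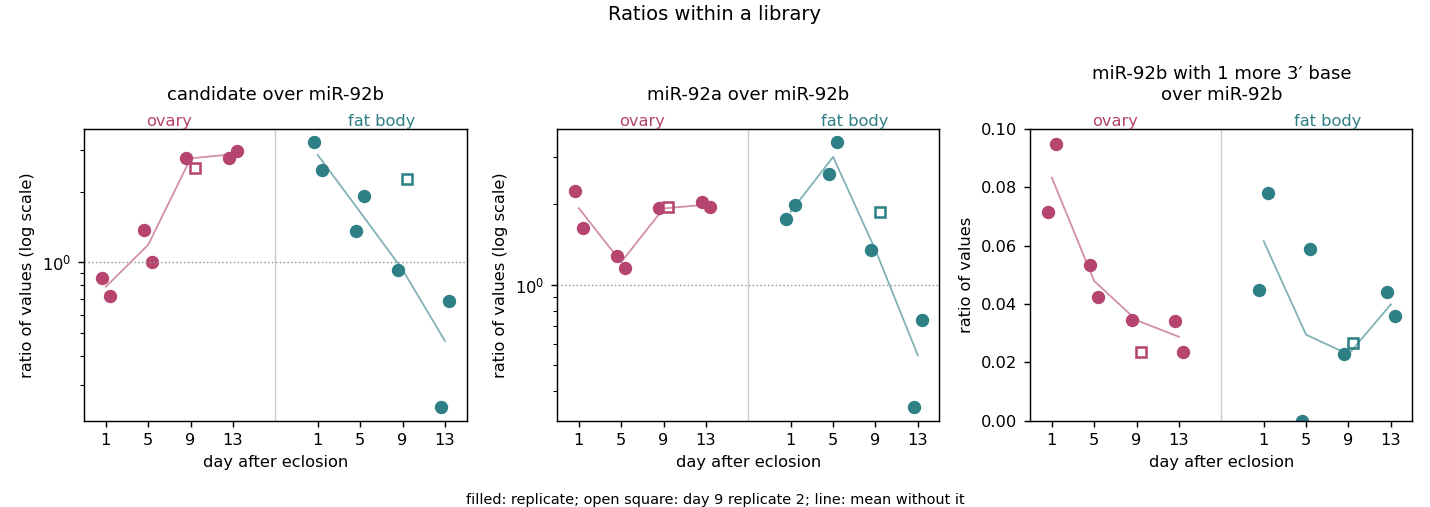
Ratios within a library by day, with ovary left and fat body right, for the candidate over miR-92b and miR-92a over miR-92b (log axes) and for the 23-base form over miR-92b (linear axis). Filled points are libraries, open squares those labelled day 9 replicate 2, and lines join group means without them. The candidate ratio reaches 2.80 and 2.98 in ovary and 0.242 and 0.686 in fat body at day 13.

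The miR-92a form ending in A had 3.59 and 7.47 in ovary at day 1, against 2.23 and 3.40 in fat body. At day 5 it had 9.98 and 6.79 in ovary, against 16.88 and 17.37 in fat body. At day 13 it had 20.22 and 31.49 in ovary, against 2.36 and 6.68 in fat body. It was thus the only tested member with both day 5 fat body values above both ovary values, a difference of -0.97 ± 0.76 that did not pass (limma, adjusted p = 0.492). At day 9 it had 17.47 and 4.69 in ovary, against 7.95 and 14.01 in fat body. miR-92a and its near copies may share reads. Of 7 fat body libraries the miR-92a value came out as whole reads in 2, and in 5 once the 21-base relative pte-miR-92c-3p_R-1_1ss18TC was added. Fat body day 5 replicate 1 was whole either way (78 reads), as the relative is at 0 there. Fat body day 5 replicate 2 was whole before the relative was added (116) and not after (117.67). The split among these forms is uncertain.

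The remaining sequences were near the limit of detection. The 5′ arm bdo-mir-92b-p5, the strand that pairs with miR-92b in the hairpin, had 3.59 and 5.41 in ovary at day 1, 2.30 and 10.18 at day 5, 7.49 and 0 at day 9, and 6.15 and 0.90 at day 13. In fat body it had 0.89 and 0 at day 1, 0 and 0 at day 5, 1.44 and 4.37 at day 9, and 0 and 1.21 at day 13. It stood at no more than 0.762% of miR-92b in any ovary library, on at most 11 reads before day 9 and 14 in all. The log2 ratio of arm to miR-92b was lower in ovary by the exact permutation test (-2.19, adjusted p = 0.0247, with means of -8.63 in ovary and -6.44 in fat body). However, 5 of 16 libraries list the arm at 0, where the pseudocount of 1 alone sets the arm's side of the ratio. In fat body outside the library labelled day 9 replicate 2 the arm was at 0 to 1.44, near that pseudocount. The ratio there mostly follows miR-92b, which was higher in ovary. The test thus cannot tell a change in the arm from the level of miR-92b.

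The second 5′ form was listed at 0.90 in ovary day 13 replicate 2 and at 0 in the other 15 libraries. der-miR-311b-3p_1ss10TA was listed at 1.32 and 1.81 in ovary at day 13, about 3 and 2 reads, and at 0 in the other 14 libraries. pte-miR-92c-3p_R-1_1ss18TC lay between 0 and 4.15 in all 16. None of these was tested.

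Over days within a tissue none of the 5 members passed the joint test, where 27.1% of all tested sequences passed in ovary and 16.5% in fat body. In ovary the day 13 minus day 1 difference was 3.46 for the candidate (limma, adjusted p of the joint test = 0.189), 1.64 for miR-92a (0.407) and 1.58 for miR-92b (0.477) on the log2 scale. The median over all tested sequences of the largest change against day 1 was 0.93. With library totals equalised the largest change was 2.71 for the candidate, 0.89 for miR-92a and 0.83 for miR-92b (median of all 0.58). With TMM scaling it was 2.68, 0.87 and 0.80 in the same order (median of all -0.66). With both libraries labelled day 9 replicate 2 left out, the candidate, miR-92a and miR-92b changed over days in ovary at adjusted p of 9.63e-05, 0.00199 and 0.00552 (ranges over all alternatives 9.63e-05 to 0.442, 0.00199 to 0.75 and 0.00552 to 0.753). In that fit 54.9% of tested sequences passed, so that 3 of 5 members is near the background. Of the 7 tested ovary marker sequences 6 rose over days with all 16 libraries, among them bdo-miR-318, which had 33505.57 and 42137.96 at day 13.

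In fat body the day 13 minus day 1 difference was 1.99 for miR-92b, 0.12 for miR-92a and -0.78 for the candidate, with adjusted p of the joint test (limma) of 0.0818, 0.125 and 0.18. Their largest change against day 1 was at day 9, at 3.73, 3.50 and 2.78, which includes the library labelled fat body day 9 replicate 2. Unadjusted, 3 of the 5 members had a p under 0.05, as did 110 of all 321 tested sequences. The interaction of tissue and day was called for none of the 5, where 11.2% of all tested sequences were called. Leaving out both libraries labelled day 9 replicate 2, it was called for the candidate (adjusted p = 0.000615, range 0.000265 to 0.493) and for miR-92a (adjusted p = 0.00341, range 0.000265 to 0.421), 2 of 5 members where 30.3% of tested sequences were called.

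Several sequences outside the family had levels as closely correlated with miR-92b as its relatives. Over 16 libraries the highest Pearson correlations of log2(value + 1) with bdo-miR-92b among other tested sequences were 0.98 for dme-miR-995-3p_R+1, 0.964 for bdo-miR-995, 0.957 for bdo-miR-11596_R+1, 0.945 for PC-3p-13290_1089 and 0.941 for PC-3p-56906_181. Among the members it was 0.954 for miR-92a, 0.938 for the 23-base form, 0.928 for the candidate and 0.474 for the miR-92a form ending in A, and the median over all tested sequences was 0.268. These points share libraries and depth, and the correlations describe likeness only. Without both libraries labelled day 9 replicate 2 the same 5 sequences led, at 0.938 to 0.979.

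bdo-miR-995, a conserved insect miRNA, had 970.58 and 535.02 in ovary at day 1, against 90.37 and 78.87 in fat body. At day 13 it had 2555.61 and 3215.09 in ovary, against 192.08 and 207.67 in fat body. Like miR-92b it thus had its 2 highest fat body values outside the library labelled day 9 replicate 2 at day 13.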

How the data were processed

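Total RNA was made into small RNA libraries and sequenced on an Illumina instrument, and the authors removed adapter dimers, structural RNA and repeats with ACGT101-miR, per the labels' protocols. The deposited table holds 1 normalised signal value per sequence and library, marked norm per the file headers. How values were scaled, and the aligner and genome build, are not given there. Low values were 86.6% to 93.0% whole multiples of 1 step per library (tolerance 0.1), worth 0.44 to 3.07. Dividing by it gave the approximate reads, which carry the step's error and cover no other source of error. The sum of signal per library was 434089 to 1155602.

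Entries with the same letters were summed. Sequences at 10 or more in 2 or more libraries entered limma 3.58.1 (R 4.3.3), with an intensity trend, on log2(value + 1), which understates changes of low values. The fit had 8 group means, 8 residual and 4.91 prior degrees of freedom. P-values were adjusted by Benjamini-Hochberg over all 321 sequences with a threshold of 0.05. Folds are of value + 1. Ratios are of value + 1 on the log2 scale in tests, and of plain values where given as ratios or percentages. They were tested by exact two-sided permutation, with tissue permuted within day (1296 permutations) or day within tissue (2520). The median for a joint test over days is of the largest change against day 1, in either direction.

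Members, relatives by seed or number, marker lists and the rule naming the 5 sequences most correlated with miR-92b were chosen with earlier results of these data known. Marker lists were matched by miRNA number. In 20 simulated sets of 321 sequences the tissue comparison recovered 64.8%, 95.2% and 99.5% of sequences changed by log2 1, 2 and 3. False calls were 3.9%. These shares hold for the spread used in the simulated sets and may not hold for the reported fit. In the reported fit the SE of the miR-92b tissue difference was 0.555, against 0.176 without both libraries labelled day 9 replicate 2. The duplex was predicted with ViennaRNA 2.7.2. Alternatives were another pseudocount, no filter, 2 other scalings, a replicate block, each sequence taken once, and libraries left out.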

Additional observations from a re-analysis of the deposited data

Results flagged for a closer look

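The ratio of the candidate PC-3p-204_49387 to miR-92b moved with day differently in the 2 tissues, with a log2 slope 0.381 per day higher in ovary than in fat body (exact permutation, adjusted p = 0.0123, unadjusted 0.00309). All 4 ovary libraries of days 9 and 13 had a higher ratio than all 4 of days 1 and 5. Among them is the one labelled ovary day 9 replicate 2, which went against its label in part. The library labelled fat body day 9 replicate 2, with a ratio of 2.27, also enters the difference of slopes. Without both libraries that difference was 0.3955 per day.

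The ratio of miR-92a to miR-92b also had slopes that differed, by 0.184 per day (exact permutation, adjusted p = 0.0494). This value lies at the threshold.

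The candidate's level at day 13 against day 1 moved in opposite directions in every library of the tissues, up in both ovary libraries and down in both fat body libraries. The difference of the changes was 4.24 on the log2 scale. As a single contrast it was not tested, and the limma interaction of tissue and day had an adjusted p of 0.229 for the candidate with all 16 libraries.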

How the results depend on the processing

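The 4 calls of miR-92a, miR-92b, the 23-base form and the candidate over the mean of days held in all 23 alternatives, with adjusted p up to 0.00589. At day 13 TMM scaling lost the call of the miR-92a form ending in A (adjusted p = 0.0513). Over all tested members, comparisons and alternatives, 809 values kept their direction and side of the threshold, 56 came to pass it, 36 no longer passed and 19 changed sign, all of them uncalled.

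Settings moved the counts at single days. At day 1 the tested sequences called were 10, but 3 with no filter, 3 with a replicate block and 57 without both libraries labelled day 9 replicate 2, and the members called were 2, but 0, 0 and 4. With the block the adjusted p at day 1 was 0.0601 for miR-92b and 0.0624 for miR-92a. At day 5 they were 7, but 12 with no filter, 43 with library totals equalised, 13 with TMM scaling, 0 with the block (78 at an unadjusted p under 0.05) and 85 without both libraries, and members 0, but 2, 2 and 4 with library totals, TMM and without both libraries. At day 9 the counts were 0, but 109 and 4 members without both libraries, where 1 library per tissue is left and is assumed to vary like the other groups. Over days in ovary they were 87, but 174 and 3 members without both, and in fat body 53, but 104 and 1 member. For the interaction they were 36, but 12 with no filter, 4 with library totals, 1 with the block, and 96 and 2 members without both. The cause was not tested. The replicate block moved no other count by over 1.5 times. Replicate numbers were not treated as pairs, since the labels do not say that equal numbers pair samples. Correlations of deviations over 28 pairs of groups ran from -0.753 to 0.362, with 9 above 0.1. They include the day 9 groups and cannot settle whether samples were paired.

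Leaving out 1 library gave 78 to 161 sequences for the mean of days (members 4 to 4), 0 to 30 at day 1 (0 to 4), 0 to 60 at day 5 (0 to 4), 0 to 30 at day 9 (0 to 3), 80 to 173 at day 13 (3 to 5), 53 to 154 over days in ovary (0 to 2), 4 to 159 in fat body (0 to 4) and 1 to 110 for the interaction (0 to 4). At day 9 the members' differences then ran from -1.475 to 3.176 for miR-92b, -1.335 to 3.151 for the 23-base form, -1.417 to 3.706 for miR-92a, -1.026 to 0.6722 for the miR-92a form ending in A and -1.252 to 4.682 for the candidate. The form ending in A was at 0.06291 at day 9 with library totals and at 1.045 without both libraries. The candidate over days in fat body ran from -0.7829 to 5.751, and was at -0.7829 without both. The interaction of the form ending in A ran from -2.138 to 2.24, and was 1.035 with a pseudocount of 10.

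The tissue difference of the arm ratio ran from -2.63 to -1.751, and its call was lost without ovary day 9 replicate 2 (exact permutation, adjusted p = 0.0741), fat body day 9 replicate 1 (0.0679) or fat body day 13 replicate 2 (0.0617). That of the 23-base form over miR-92b ran from -0.3024 to 0.4062, and with a pseudocount of 10 it turned to -1.164 and passed the threshold (exact permutation, adjusted p = 0.00926, against 0.946 as reported). That pseudocount exceeds most fat body values of this form. With 1 library left out the candidate ratio ran from 0.1621 to 0.5338 and the miR-92a ratio from 0.1195 to 0.3895. The slope of the candidate ratio in fat body ran from -0.2328 to -0.147. The difference of slopes ran from 0.1217 to 0.2246 for the miR-92a ratio, and was 0.1683 with a pseudocount of 10 and 0.1919 without both libraries, no longer called in either. It ran from -0.06196 to 0.07354 for the arm ratio (0.07437 with a pseudocount of 10), and was 0.01195 for the 23-base form with that pseudocount.

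Scalings moved the median tissue difference of all sequences over the mean of days to 0.56 with library totals and 0.07 with TMM, against 0.20 as deposited. The planned edgeR test on recovered reads was not run, because in too many cases low values were not whole. Low depth limits the 5′ arm, the 23-base form in fat body and the fat body ratios. With 2 libraries per group the spread is pooled over groups, and the day 9 libraries widen it.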
